A study of Rattus norvegicus with 311 samples.

Results

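Primary rat hepatocytes change quickly once they are plated, and the comparison described here is the step from day 1 to day 3 after plating in wells that received vehicle. It rests on 16 of the 311 libraries of the series, 8 from day 1 and 8 from day 3. They were chosen by culture, treatment and day as the labels give them, and every probe of the assay was examined. The cells came from male Sprague Dawley rats, no age is given, and they were obtained from a commercial supplier. The 4 groups are hepatocytes alone (monoculture) on day 1 and on day 3, and hepatocytes with non-parenchymal cells of the liver (co-culture) on day 1 and on day 3. Each group has 4 libraries, 1 from each of the plates numbered 1, 3, 5 and 7. All 16 wells shared a collagen coating and carried the vehicle for the 24 hours before lysis. The series also holds vehicle wells of day 7, used below for levels only, and wells exposed to ketoconazole, GW7647, gemfibrozil or phenobarbital, used below only at their lowest doses. The labels speak of biological replicates and name no animals, so each p-value reflects how much these libraries varied, which can be technical. RNA of a well is measured as a whole, so fewer cells of a type and less RNA per cell cannot be told apart.

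A hepatocyte in the intact liver is a polarised epithelial cell that secretes most plasma proteins, carries out the urea cycle and gluconeogenesis, and clears drugs through cytochrome P450 enzymes and conjugating enzymes. Isolation and plating on a flat collagen-coated surface remove its neighbours, its matrix and the hormones of portal blood. Loss of liver-specific transcripts, spreading of the cell with new actin filaments, and deposition of matrix by hepatocytes and by contaminating stellate cells are textbook features of such cultures. The assay, TempO-Seq, counts pairs of detector oligonucleotides that are ligated on a target RNA, so each row of the data is 1 probe for 1 transcript region. Levels are given as CPM, counts scaled to a common library total after correction by the trimmed mean of M-values (TMM).

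The hepatocyte identity of the wells was visible on both days. The markers of hepatocytes summed to between 37670 and 88210 CPM in the day 1 libraries and to between 34530 and 72680 CPM in the day 3 libraries, and none of them was without counts. Of 16 members tested 10 fell and 2 rose, and 5 fell and 1 rose with the library total as a covariate. Day 3 libraries were shallower, with totals between 3392976 and 7346547 counts against 5907094 to 10820668 on day 1. They also had counts for fewer probes, 8459 to 13115 against 11943 to 13449. The day 3 monoculture of plate 1 stood apart, with 8459 probes detected and a mean correlation of 0.835 with the other day 3 libraries, where the rest had 0.862 to 0.907. Without it 3333 probes passed the test described next, against 3230 with it. Depth moved with the day, and its part in the counts of changed probes was examined with the library total as a covariate.

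**Figure D1:**
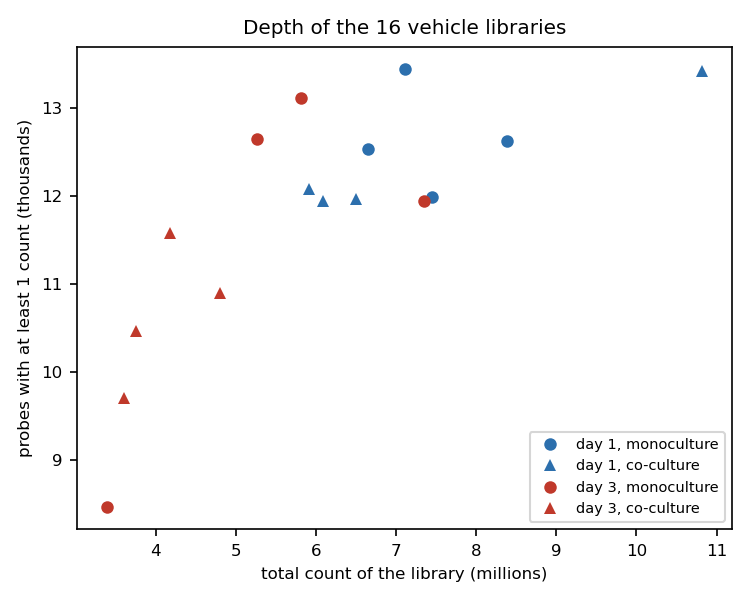
Total count of each of the 16 vehicle libraries (x axis, units as labelled) against the number of probes with at least 1 count (y axis, units as labelled), with days as colours and cultures as symbols, 1 point per library. Most day 3 libraries lie to the left of and below those of day 1, and the lowest point is the day 3 monoculture of plate 1 with 8459 probes.

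Between day 1 and day 3 the level of 3230 of 9280 probes tested changed (34.8%, edgeR's quasi-likelihood test with plate and culture as blocks, Benjamini-Hochberg adjusted p under 0.05). Of these, 1592 were higher on day 3 (17.2% of the probes tested) and 1638 lower (17.7%). A change of at least 2-fold was seen in 654 of the higher and 939 of the lower probes. The 8 libraries of day 3 all lay above the 8 of day 1 for 280 probes (3.02%) and all below for 254 (2.74%), and 2072 of the 3230 moved the same way in each of the 8 pairs of same culture and plate. The 8 pairs come from 4 plates, and libraries of 1 plate deviated together. They are therefore not 8 independent repeats, here or below. Adjusted for the library total, 734 probes passed, 477 higher and 257 lower, so that the higher ones made up 65% in place of 49.3%. Of the 3230 probes, 3208 kept their direction in that fit, in which the effects of day and depth are estimated from libraries where both move together. Without plate 5, 1053 probes passed as lower. Counts for gene groups below are therefore given with the library total as a covariate as well. Their background is then the 477 higher and 257 lower of 9280 probes in that fit, and not 17.2% and 17.7%.

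Enzymes of drug oxidation were among the genes that fell most. Of the 24 cytochrome P450 probes tested (32 genes of the list had a probe), 17 fell and 1 rose, where 17.7% of all probes fell, with a median log2 fold change of -2.08 against -0.0792 over all probes. Members of the families that oxidise drugs and steroids led the list. Cyp2e1, which oxidises ethanol and other small molecules, ranged from 69.4 to 302 CPM on day 1 (median 128) and from 0.576 to 6.88 CPM on day 3 (median 2.68). The highest day 3 library was thus below the lowest of day 1 (log2 fold change -5.63, SE 0.36, adjusted p = 1.1e-08, lower in 8 of 8 pairs). Cyp3a2, a male-predominant drug and steroid hydroxylase of the rat, ranged from 181 to 661 CPM on day 1 (median 227) and from 3.80 to 11.5 CPM on day 3 (median 5.74). Its groups did not overlap either (log2 fold change -5.50, SE 0.31, adjusted p = 4.3e-09). Cyp1a2, which oxidises planar aromatic compounds, ranged from 29.1 to 129 CPM on day 1 (median 82.5) and from 0 to 3.36 CPM on day 3 (median 1.56) (log2 fold change -5.37, SE 0.45, adjusted p = 1.3e-07). Cyp2c11, the main male-specific P450 of rat liver, ranged from 29.5 to 107 CPM on day 1 (median 85.8) and from 0 to 11.9 CPM on day 3 (median 2.75) (log2 fold change -4.66, SE 0.42, adjusted p = 3.5e-07). Cyp3a1, another member of family 3A, changed by -5.45 (SE 0.47) and Cyp2c6v1 by -3.36 (SE 0.35) on the log2 scale. Cyp1a1 and Cyp7a1, the latter the rate-limiting enzyme of bile acid synthesis, had too few counts to be tested. Given the library total as a covariate, 9 members of the list passed as lower, and with a plate left out 13 to 19 did. P450s of one subfamily are similar in sequence, so probes may share signal.

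**Figure D2:**
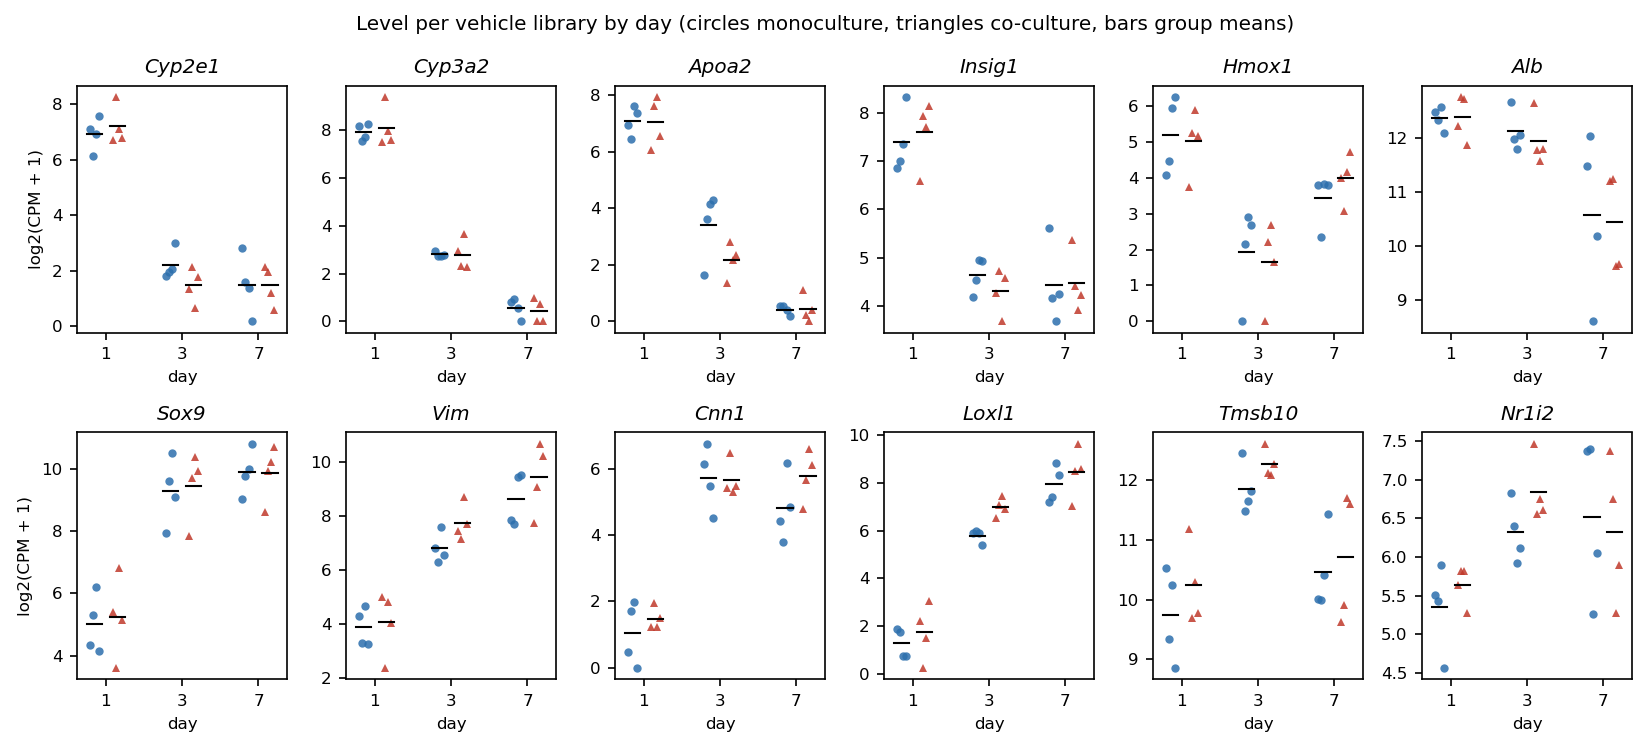
Level of 12 genes in each of the 24 vehicle libraries (y axis, log2 of CPM plus 1) by day (x axis), with circles for monoculture, triangles for co-culture and bars for the mean of the 4 libraries. On day 3 the points of Cyp2e1, Cyp3a2, Apoa2, Insig1 and Hmox1 lie below every point of day 1, those of Sox9, Vim, Cnn1, Loxl1, Tmsb10 and Nr1i2 above, and those of Alb overlap.

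Enzymes that join drugs to glucuronate, sulfate or glutathione were the next group. Of 26 tested, 15 fell and 1 rose (median -0.93), and 8 fell with the library total as a covariate. Ugt2b1, a glucuronosyltransferase, ranged from 4.22 to 18.7 CPM on day 1 (median 9.98) and from 0 to 1.66 CPM on day 3 (median 0.178) (log2 fold change -4.30, SE 0.64, adjusted p = 6e-05). Gsta2, a glutathione transferase of the alpha class, ranged from 24.8 to 96.6 CPM on day 1 (median 48.0) and from 0.524 to 15.5 CPM on day 3 (median 6.92), so that its day 3 libraries lay below those of day 1 (log2 fold change -2.77, SE 0.38, adjusted p = 2.5e-05). Gstp1, the pi-class enzyme that is low in normal adult rat hepatocytes and high in preneoplastic foci, went the other way. It ranged from 141 to 487 CPM on day 1 (median 317) and from 484 to 1146 CPM on day 3 (median 719) and was higher on day 3 in 8 of 8 pairs, although its groups touched (log2 fold change 1.21, SE 0.15, adjusted p = 1.4e-05).

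Of the 11 hepatocyte transporters tested 8 fell and 0 rose (23 had a probe, median log2 fold change -1.51), and 0 were higher at an unadjusted p under 0.05 or in DESeq2. Slc2a2, the low-affinity glucose carrier of the hepatocyte, ranged from 11.6 to 63.8 CPM on day 1 (median 19.8) and from 7.76 to 17.8 CPM on day 3 (median 10.9) (log2 fold change -1.13, SE 0.29, adjusted p = 0.0061). It was lower in 8 of 8 pairs with overlapping groups. After adjustment for library totals, 1 transporter passed and Slc2a2 did not (adjusted p = 0.27). Without plate 5, 4 transporters passed, and Slc2a2 had an adjusted p of 0.11.

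Transcription factors of the hepatocyte went both ways. Of 27 tested, 5 rose and 5 fell, which is near the share of all probes (17.2% and 17.7%), with a median of 0.18. Hnf4a, the nuclear receptor that many hepatocyte genes depend on, ranged from 127 to 335 CPM on day 1 (median 175) and from 106 to 399 CPM on day 3 (median 254), with 4 of 8 pairs higher and 4 lower (log2 fold change 0.19, SE 0.23, adjusted p = 0.55). Its estimate changed sign when plate 1 was left out (-0.13) or when co-culture was fitted alone (-0.20). Nr1i2, the pregnane X receptor that induces family 3A P450s, ranged from 22.7 to 58.7 CPM on day 1 (median 46.7) and from 59.8 to 176 CPM on day 3 (median 94.8) and rose in 8 of 8 pairs without overlap (log2 fold change 1.09, SE 0.17, adjusted p = 8.7e-05). Cebpa, a factor of the differentiated hepatocyte, rose from 83.6 CPM on day 1 to 137 CPM on day 3, which here and below are medians of 8 libraries (log2 fold change 0.68, SE 0.14, adjusted p = 0.00078). Onecut2, a homeobox factor of liver and bile duct development, rose from 19.3 CPM on day 1 to 54.6 CPM on day 3 (log2 fold change 1.34, SE 0.18, adjusted p = 2.4e-05). Foxa3, a forkhead factor that opens liver enhancers, fell from 261 CPM on day 1 to 100.4 CPM on day 3 (log2 fold change -1.49, SE 0.19, adjusted p = 1.3e-05). With the library total as a covariate 2 factors passed as higher and 1 as lower, and Cebpa did not pass (adjusted p = 0.33). With a plate left out 3 to 6 rose and 3 to 7 fell.

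Most plasma proteins fell, by unequal amounts. Of 25 secreted plasma proteins tested, 16 fell and 3 rose, with a median of -1.13, and 13 fell with the library total as a covariate. Albumin, the most familiar of them, was not among these. Alb ranged from 3754 to 6896 CPM on day 1 (median 5412) and from 3039 to 6454 CPM on day 3 (median 3794) (log2 fold change -0.37, SE 0.16, adjusted p = 0.085), and 6 of 8 pairs were lower on day 3. Serpina6, the corticosteroid-binding globulin, ranged from 13.1 to 34.4 CPM on day 1 (median 22.8) and from 0 to 1.92 CPM on day 3 (median 0.204) and was near the detection limit on day 3 (log2 fold change -5.29, SE 0.55, adjusted p = 1.6e-06). Afm, the vitamin E carrier afamin, ranged from 36.4 to 84.3 CPM on day 1 (median 62.1) and from 0.712 to 8.18 CPM on day 3 (median 5.01) (log2 fold change -3.65, SE 0.31, adjusted p = 1.5e-07). Hpx, the heme carrier hemopexin, ranged from 333 to 2611 CPM on day 1 (median 794) and from 105 to 304 CPM on day 3 (median 177) (log2 fold change -2.33, SE 0.29, adjusted p = 1.1e-05). The groups of these 3 genes did not overlap. Orm1, the acute-phase alpha-1-acid glycoprotein, fell from 6419 CPM on day 1 to 2126 CPM on day 3 (log2 fold change -1.68, SE 0.18, adjusted p = 1.9e-06), and its groups touched.

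Many clotting and complement proteins had no call. Of 31 tested, 14 fell, 1 rose and 16 did not pass (median -0.68), and with the library total as a covariate 7 fell. C9, the pore-forming component of complement, ranged from 39.1 to 136 CPM on day 1 (median 97.7) and from 4.72 to 23.0 CPM on day 3 (median 9.35) (log2 fold change -3.19, SE 0.28, adjusted p = 2.5e-07). Serpinc1, antithrombin, ranged from 1496 to 2813 CPM on day 1 (median 2545) and from 539.8 to 832 CPM on day 3 (median 693) (log2 fold change -1.79, SE 0.14, adjusted p = 9.7e-08). Plg, the precursor of plasmin, ranged from 124 to 279 CPM on day 1 (median 181) and from 41.5 to 95.3 CPM on day 3 (median 63.8) (log2 fold change -1.62, SE 0.17, adjusted p = 1.8e-06). Serpind1, heparin cofactor II, changed by -4.27 (SE 0.50) from a low level. The day 3 libraries of these 4 genes lay below every day 1 library. The log2 fold changes of the fibrinogen chains were 0.14 for Fga, -0.32 for Fgg and -0.68 for Fgb, of which Fgb passed (adjusted p = 0.016), though not without plate 3 (0.12), without plate 5 (0.19) with the share of probes detected as a covariate (0.057) or with the library total (0.43). The sign of Fga turned without plate 1 (-0.16) or plate 7 (-0.23). These 3 were chosen after their values were seen.

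Apolipoproteins and factors of lipoprotein assembly included 10 that fell and 4 that rose among 18 tested (median -1.22), and with the library total as a covariate 8 fell and 2 rose. Without plate 7, 1 rose, and without plate 1, 2 did. Apoa2, the second protein of high-density lipoprotein, ranged from 65.6 to 242 CPM on day 1 (median 143) and from 1.55 to 18.6 CPM on day 3 (median 5.03). Every day 3 library was below every day 1 library (log2 fold change -4.37, SE 0.35, adjusted p = 7.9e-08). Apoa1, the first protein of the same particle, ranged from 4512 to 10417 CPM on day 1 (median 6468) and from 7829 to 28866 CPM on day 3 (median 10589) and was higher in 7 of 8 pairs (log2 fold change 0.78, SE 0.23, adjusted p = 0.012). That call was lost without plate 1 (adjusted p = 0.12), without plate 7 (0.12), with the share of probes detected as a covariate (0.25) and with the library total as a covariate (0.49). Apoc4, from the gene cluster of Apoe, fell from 216 CPM on day 1 to 42.7 CPM on day 3 (log2 fold change -2.35, SE 0.30, adjusted p = 1.2e-05).

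Genes of amino acid metabolism went both ways. Of 32 tested members of the urea cycle and amino acid breakdown, 12 fell and 6 rose (median -0.42), and with the library total as a covariate 2 fell and 3 rose. Over all probes 17.7% fell and 17.2% rose in the main fit, so the number that rose is near that share. Among the 5 urea cycle enzymes, chosen after their values were seen, the log2 fold changes were -2.48 for Cps1 (adjusted p = 0.0025), -1.26 for Ass1 (0.0025), -1.20 for Asl (0.00022) and -1.55 for Arg1 (0.0018), while Otc had -0.03 (0.95). Cps1, Ass1 and Arg1 did not pass with the library total as a covariate (adjusted p = 0.095, 0.81 and 0.31), and without plate 3 or plate 5, 8 members of the list fell. Csad, which makes hypotaurine on the route to taurine, ranged from 2.86 to 20.7 CPM on day 1 (median 12.1) and from 21.4 to 117 CPM on day 3 (median 44.3) and rose without overlap (log2 fold change 2.06, SE 0.31, adjusted p = 6.1e-05). Gpt2, the mitochondrial alanine aminotransferase, ranged from 34.8 to 98.8 CPM on day 1 (median 70.8) and from 119 to 167 CPM on day 3 (median 137) and also rose without overlap (log2 fold change 1.08, SE 0.17, adjusted p = 0.00012). Tat, the glucocorticoid-induced tyrosine aminotransferase, ranged from 2.18 to 15.8 CPM on day 1 (median 9.06) and from 0 to 9.44 CPM on day 3 (median 2.32), with 2 of 8 pairs higher (log2 fold change -1.89, SE 0.77, adjusted p = 0.067).

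Glucose metabolism genes that changed all fell. Of 14 gluconeogenesis and glycogen genes tested 6 fell and 0 rose, and of 27 glycolysis and hypoxia-responsive genes 13 fell and 0 rose (medians -0.83 and -0.55). In both lists 0 members were higher at an unadjusted p under 0.05 in edgeR and 0 rose in DESeq2. Ppp1r3c, which brings protein phosphatase 1 to glycogen, ranged from 31.8 to 67.1 CPM on day 1 (median 43.7) and from 2.33 to 27.1 CPM on day 3 (median 10.6) (log2 fold change -2.19, SE 0.31, adjusted p = 3.7e-05). Ugp2, which makes UDP-glucose, fell from 163 CPM on day 1 to 65.2 CPM on day 3 (log2 fold change -1.18, SE 0.15, adjusted p = 1e-05). Ldha, the lactate dehydrogenase A subunit, ranged from 572 to 1049 CPM on day 1 (median 839.8) and from 191 to 567 CPM on day 3 (median 388) (log2 fold change -1.26, SE 0.19, adjusted p = 7.4e-05). Ero1a, a hypoxia-induced oxidase of protein folding, ranged from 562 to 910.5 CPM on day 1 (median 760.4) and from 253 to 474 CPM on day 3 (median 336) (log2 fold change -1.10, SE 0.11, adjusted p = 1e-06). The groups of these 4 genes did not overlap. Vegfa, the hypoxia-induced endothelial growth factor, fell from 53.5 CPM on day 1 to 16.8 CPM on day 3 (log2 fold change -1.75, SE 0.30, adjusted p = 0.00024). Adjusted for the library total, 2 and 5 members fell and Vegfa did not pass (adjusted p = 0.077), and without plate 3 or plate 5, 3 members of the first list fell.

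Among lipid genes, most calls in synthesis were lower and most calls in the list that holds fatty acid oxidation were higher. Of 21 cholesterol genes 8 fell and 2 rose, of 13 fatty acid synthesis genes 6 fell and 1 rose, and of 25 genes of fatty acid oxidation and PPAR-alpha, the receptor that induces them, 8 rose and 3 fell (medians -0.51, -0.75 and 0.39). Insig1, the endoplasmic reticulum protein that retains SREBP and is itself an SREBP target, ranged from 95.5 to 319.7 CPM on day 1 (median 187) and from 11.8 to 29.9 CPM on day 3 (median 22.4). It fell in 8 of 8 pairs without overlap (log2 fold change -3.08, SE 0.20, adjusted p = 1.4e-08). Srebf2, which encodes the SREBP of cholesterol synthesis, went up. It ranged from 172 to 278 CPM on day 1 (median 204) and from 291 to 486 CPM on day 3 (median 375), again without overlap (log2 fold change 0.82, SE 0.10, adjusted p = 6.5e-06). Acly, which makes cytosolic acetyl-CoA, fell from 27.5 CPM on day 1 to 9.67 CPM on day 3 (log2 fold change -1.63, SE 0.30, adjusted p = 0.00046). Acadl, the long-chain acyl-CoA dehydrogenase, ranged from 1375 to 2368 CPM on day 1 (median 1982) and from 2749 to 5373 CPM on day 3 (median 3327) and rose without overlap (log2 fold change 0.91, SE 0.12, adjusted p = 1.8e-05). Cpt1a, which admits fatty acids to mitochondria, rose from 8.36 CPM on day 1 to 24.8 CPM on day 3 (log2 fold change 1.49, SE 0.26, adjusted p = 0.00025). The 3 that fell in this list included Fabp1, the liver fatty acid-binding protein, which ranged from 21.0 to 222 CPM on day 1 (median 52.0) and from 2.88 to 20.0 CPM on day 3 (median 4.70) (log2 fold change -3.55, SE 0.51, adjusted p = 4.9e-05), and Plin2, a coat protein of lipid droplets (log2 fold change -1.12, SE 0.13, adjusted p = 4.8e-06). Given the library total as a covariate, 1 cholesterol gene and 1 fatty acid synthesis gene fell, 4 oxidation genes rose, and Acly and Cpt1a did not pass (adjusted p = 0.17 and 0.067). Without plate 3 or plate 5, 4 cholesterol and 3 fatty acid synthesis genes fell.

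**Figure D3:**
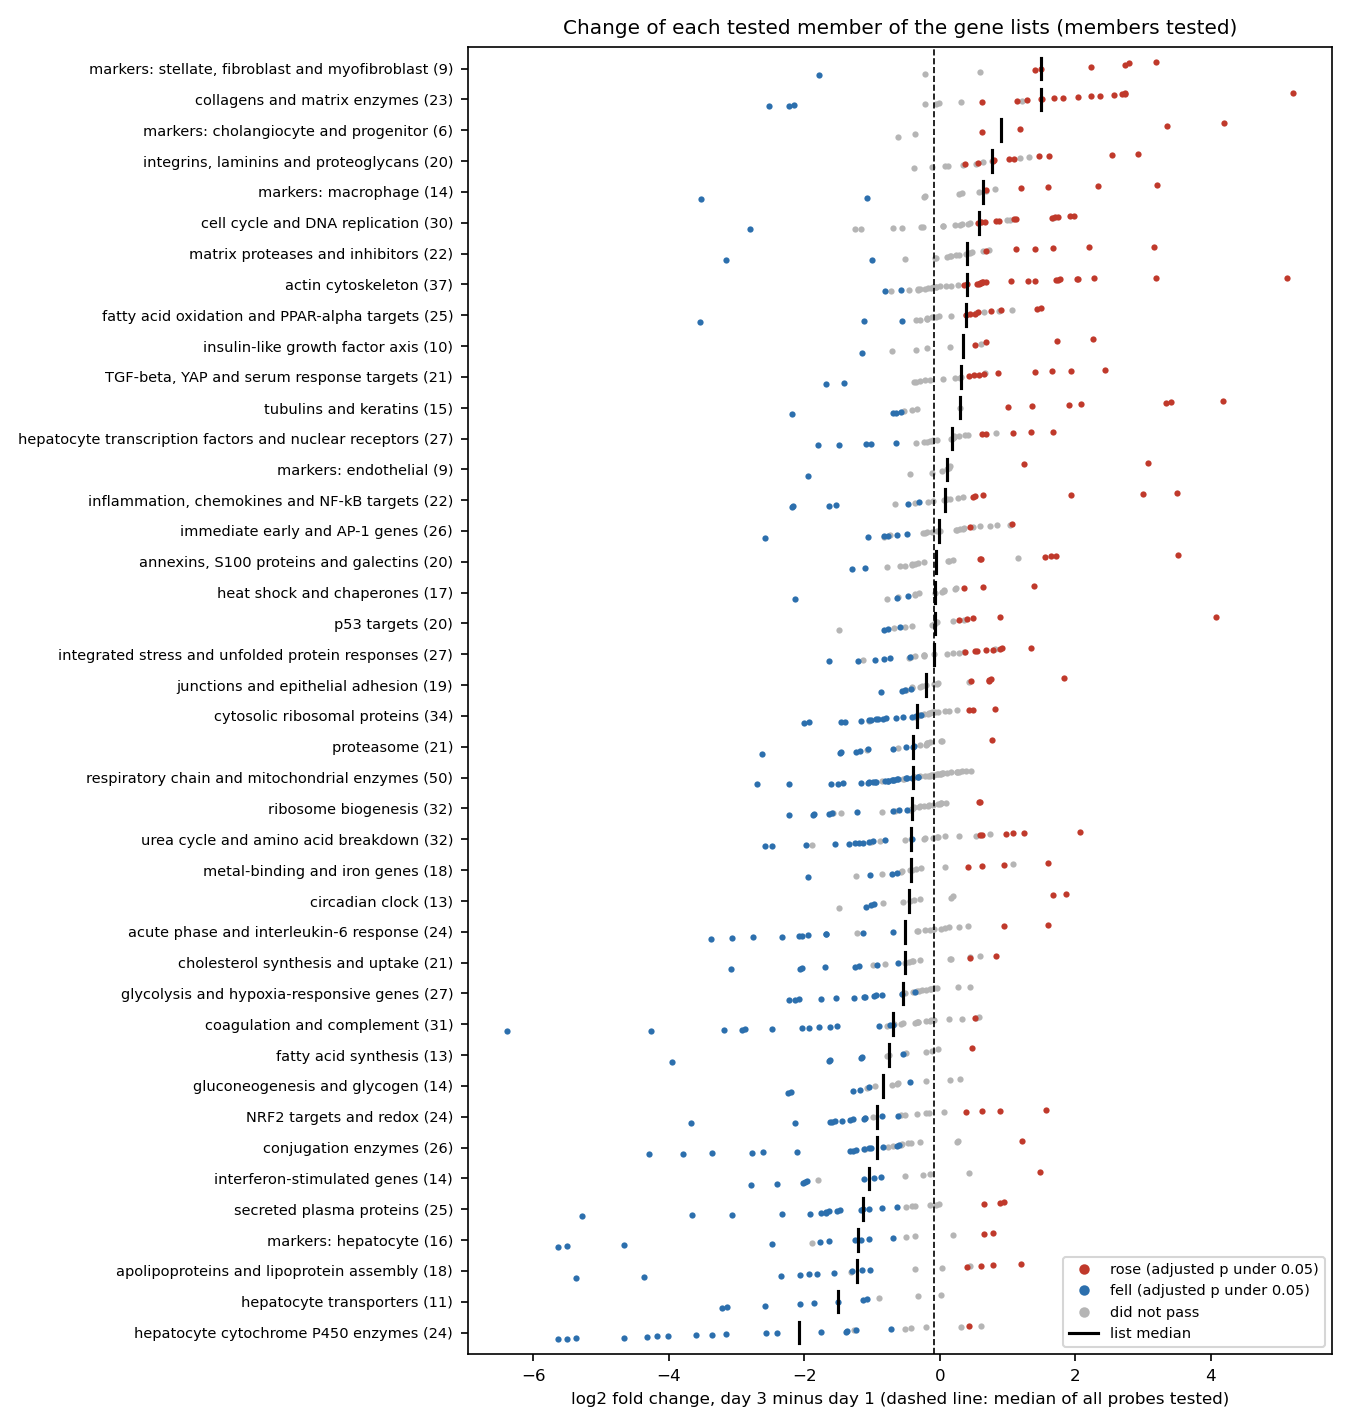
Log2 fold change from day 1 to day 3 (x axis) of each tested member of the gene lists with at least 5 members tested (rows, sorted by median), with red for higher, blue for lower and grey for members that did not pass, and black ticks for list medians. P450 enzymes (median -2.08) stand at the bottom, and collagens and matrix enzymes (1.49) and markers of stellate cells and fibroblasts (1.5) at the top, while the dashed line marks the median of all probes (-0.0792).

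Many antioxidant genes fell. Of 24 targets of NRF2, the factor that induces antioxidant enzymes, 12 fell and 4 rose (median -0.92), and 7 fell with the library total as a covariate. Hmox1, heme oxygenase 1, ranged from 12.4 to 74.9 CPM on day 1 (median 36.2) and from 0 to 6.49 CPM on day 3 (median 3.57) (log2 fold change -3.67, SE 0.34, adjusted p = 4.3e-07), so that the day 3 libraries were below all of day 1. Gsr, glutathione reductase, fell from 53.1 CPM on day 1 to 19.7 CPM on day 3 (log2 fold change -1.33, SE 0.22, adjusted p = 0.0002). Genes of the integrated stress and unfolded protein responses went both ways, with 8 of 27 risen and 6 fallen (median -0.09), and 4 risen without plate 5. Over all probes 17.2% rose and 17.7% fell, so the number fallen is near that share. The median is near that of all probes (-0.0792). The chaperone Calr of the endoplasmic reticulum fell from 374 CPM on day 1 to 206 CPM on day 3 (log2 fold change -0.82, SE 0.13, adjusted p = 8.4e-05) and Shmt2, a mitochondrial serine enzyme, from 49.5 CPM on day 1 to 22.5 CPM on day 3 (log2 fold change -1.21, SE 0.15, adjusted p = 8e-06). Herpud1, of endoplasmic reticulum-associated degradation, rose from 468 CPM on day 1 to 725 CPM on day 3 (log2 fold change 0.78, SE 0.13, adjusted p = 0.00018). After adjustment for library totals, 0 of the 27 rose and 2 fell, and Herpud1 did not pass (adjusted p = 0.14). Among 17 heat shock genes 3 rose and 3 fell, which is near the share of all probes (17.2% and 17.7%), and 1 and 0 did with the library total as a covariate. They included the small heat shock protein Cryab, up from 159 CPM on day 1 to 532 CPM on day 3 (log2 fold change 1.38, SE 0.18, adjusted p = 1.6e-05), and the inducible Hspa1a, down from 9.97 CPM on day 1 to 1.92 CPM on day 3 (log2 fold change -2.14, SE 0.46, adjusted p = 0.0014), which did not pass with the library total (0.25). Without plate 5, 1 heat shock gene fell. Metal and iron genes had 4 risen and 4 fallen of 18, again near the share of all probes (2 and 2 with the library total as a covariate). They included Hamp, the iron hormone hepcidin, down (log2 fold change -1.94, SE 0.24, adjusted p = 1.1e-05) and Steap4, a metalloreductase, up (log2 fold change 1.60, SE 0.27, adjusted p = 0.00022). Without plate 1, 8 of the metal and iron genes fell.

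Many acute-phase and interferon genes fell, and chemokines went both ways. Of 24 acute-phase and interleukin-6 response genes 11 fell and 2 rose (median -0.51), and 7 fell with the library total as a covariate. Crp, C-reactive protein, ranged from 67.3 to 218 CPM on day 1 (median 131) and from 6.88 to 22.1 CPM on day 3 (median 15.8) (log2 fold change -3.38, SE 0.30, adjusted p = 2.5e-07). Il6st, the signal-transducing receptor chain of interleukin-6, ranged from 31.7 to 156 CPM on day 1 (median 63.3) and from 0.776 to 31.4 CPM on day 3 (median 11.6) (log2 fold change -2.76, SE 0.34, adjusted p = 8.6e-06). Of 14 interferon-stimulated genes 8 fell and 1 rose (median -1.05). The ubiquitin-like protein Isg15 ranged from 32.6 to 156 CPM on day 1 (median 93.2) and from 3.76 to 20.1 CPM on day 3 (median 12.99) (log2 fold change -2.78, SE 0.31, adjusted p = 4e-06) and Ifih1, a sensor of viral RNA, ranged from 20.8 to 44.6 CPM on day 1 (median 31.4) and from 3.08 to 16.6 CPM on day 3 (median 6.18) (log2 fold change -2.03, SE 0.23, adjusted p = 4.1e-06). In each of these 4 genes the 8 libraries of day 3 lay below the 8 of day 1. Gbp2, a guanylate-binding protein, was the interferon-stimulated gene that rose (log2 fold change 1.48, SE 0.23, adjusted p = 0.0001). With the library total as a covariate 3 interferon genes fell, and 4 and 5 did without plate 3 and plate 5. The list of chemokines and NF-kB targets had 6 risen and 6 fallen of 22, and 5 and 1 with the library total as a covariate. Csf1, the macrophage growth factor, ranged from 26.9 to 115 CPM on day 1 (median 39.0) and from 125 to 236 CPM on day 3 (median 166) and rose without overlap (log2 fold change 1.94, SE 0.21, adjusted p = 2.1e-06). Cxcl9, an interferon-induced chemokine, fell from 156 CPM on day 1 to 52.8 CPM on day 3 (log2 fold change -1.54, SE 0.17, adjusted p = 2.8e-06). Without plate 3 or plate 5, 2 members of that list fell, and without plate 7, 3 rose.

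Many cytoskeletal genes rose. Of 37 actin cytoskeleton genes tested 20 rose and 2 fell (median 0.39), and 11 rose and 0 fell with the library total as a covariate. Without plate 3 or plate 5, 0 fell. Cnn1, calponin of contractile cells, ranged from 0 to 2.98 CPM on day 1 (median 1.59) and from 22.1 to 107 CPM on day 3 (median 43.5). Every day 3 library exceeded every day 1 library (log2 fold change 5.12, SE 0.39, adjusted p = 6.2e-08). Tpm2, beta-tropomyosin, ranged from 24.7 to 153 CPM on day 1 (median 75.5) and from 189.9 to 548 CPM on day 3 (median 364) (log2 fold change 2.28, SE 0.22, adjusted p = 9e-07), Tmsb10, the actin-sequestering thymosin beta 10, ranged from 463 to 2327 CPM on day 1 (median 1049.5) and from 2861 to 6258 CPM on day 3 (median 4409) (log2 fold change 2.05, SE 0.16, adjusted p = 7.9e-08), and Capg, an actin-capping protein, ranged from 32.5 to 101 CPM on day 1 (median 50.4) and from 133 to 355 CPM on day 3 (median 173) (log2 fold change 1.77, SE 0.14, adjusted p = 9.7e-08). None of these 3 overlapped between days. Acta2, smooth muscle actin, ranged from 0 to 3.97 CPM on day 1 (median 0.889) and from 3.27 to 54.1 CPM on day 3 (median 9.49), with overlapping groups and 8 of 8 pairs higher (log2 fold change 3.19, SE 0.49, adjusted p = 9.2e-05). Tagln, transgelin, ranged from 44.7 to 325 CPM on day 1 (median 134) and from 77.2 to 693 CPM on day 3 (median 395), with 7 of 8 pairs higher (log2 fold change 1.40, SE 0.38, adjusted p = 0.0081). The Acta2 call was lost with the library total as a covariate (adjusted p = 0.081) and the Tagln call without plate 7 (0.12) or plate 5 (0.05). Sarcomeric and smooth muscle actins are close in sequence, so their probes may share signal.

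Intermediate filament and tubulin genes included large increases. Of 15 tubulin and keratin genes, the related filament genes Vim and Nes among them, 7 rose and 4 fell, and 5 rose and 1 fell with the library total as a covariate. Vim, vimentin of mesenchymal and spreading cells, ranged from 4.23 to 31.5 CPM on day 1 (median 17.2) and from 78.7 to 416 CPM on day 3 (median 159) and rose in both cultures without overlap (log2 fold change 3.33, SE 0.23, adjusted p = 2.3e-08). Nes, nestin, ranged from 1.27 to 20.4 CPM on day 1 (median 5.74) and from 46.3 to 199 CPM on day 3 (median 126) (log2 fold change 4.17, SE 0.43, adjusted p = 1.5e-06). Stmn1, which destabilises microtubules, ranged from 325 to 1787 CPM on day 1 (median 564) and from 1557 to 4907 CPM on day 3 (median 2218), with 8 of 8 pairs higher and groups that touched (log2 fold change 1.90, SE 0.13, adjusted p = 2.3e-08). Tubb2b, a beta-tubulin, rose from 26.3 CPM on day 1 to 109 CPM on day 3 (log2 fold change 2.08, SE 0.22, adjusted p = 1.8e-06). The keratins of the hepatocyte had -0.68 for Krt8 (adjusted p = 0.0096) and -0.41 for Krt18 (0.07), both chosen after their values were seen. Krt8 did not pass without plate 3 (0.061), without plate 5 (0.12) or with the library total as a covariate (0.29), and Krt19 of bile duct cells had too few counts to be tested. In the list of annexins, S100 proteins and galectins 6 of 20 rose and 2 fell, 3 rose and 0 fell with the library total as a covariate, and 4 rose without plate 3 or 7. Junction and epithelial adhesion genes had 5 risen and 4 fallen of 19 (median -0.20) and 3 and 0 with that covariate, with 8 fallen without plate 7 and 1 without plate 1 or plate 5. Over all probes 17.2% rose and 17.7% fell, and 34.8% changed. In these 2 lists the share that rose in the main fit was above 17.2%, on few genes whose counts moved with plates left out. Lgals1, galectin 1, ranged from 0.564 to 31.1 CPM on day 1 (median 6.04) and from 47.6 to 149.7 CPM on day 3 (median 79.9) (log2 fold change 3.52, SE 0.34, adjusted p = 8.5e-07). S100a11, a calcium-binding partner of annexins, ranged from 6948 to 15386 CPM on day 1 (median 9386) and from 26428 to 33614 CPM on day 3 (median 32177) (log2 fold change 1.72, SE 0.13, adjusted p = 4.6e-08). Neither gene overlapped between days.

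Promoter sequences of 4 genes are shown because a pair stood for the contractile group that rose and a pair for the secreted proteins that fell, and each holds a motif known from its group. They are RefSeq windows of 250 bases before and 50 bases after the start on the build GRCr8, read on the strand of the gene. Fblim1, which encodes migfilin, a filamin-binding protein of cell-matrix adhesions, lies at chr5:159196767-159197066 (minus strand). Acta1, skeletal muscle actin, lies at chr19:68784145-68784444 (minus strand). Capitals mark a CArG box, the site of serum response factor, with 50 bases between it and the start in Fblim1 and 84 in Acta1.
Fblim1: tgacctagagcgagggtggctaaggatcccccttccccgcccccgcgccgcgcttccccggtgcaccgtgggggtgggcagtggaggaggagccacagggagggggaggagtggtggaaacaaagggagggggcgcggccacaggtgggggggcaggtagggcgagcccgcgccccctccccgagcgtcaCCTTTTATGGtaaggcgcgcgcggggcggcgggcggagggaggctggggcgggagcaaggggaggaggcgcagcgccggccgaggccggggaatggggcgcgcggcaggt
Acta1: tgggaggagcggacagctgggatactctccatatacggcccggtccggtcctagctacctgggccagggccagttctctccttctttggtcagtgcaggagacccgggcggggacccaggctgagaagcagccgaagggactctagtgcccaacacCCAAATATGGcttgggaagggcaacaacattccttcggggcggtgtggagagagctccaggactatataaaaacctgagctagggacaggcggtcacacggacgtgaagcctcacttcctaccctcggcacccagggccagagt
Gc, the vitamin D-binding protein of plasma, lies at chr14:18916005-18916304 (plus strand), and F13b, the carrier subunit of clotting factor XIII, at chr13:53681389-53681688 (plus strand). Capitals mark a match to a form of the site of hepatocyte nuclear factor 1 (HNF1), which is GTTAAT, then any 2 bases, then TTA, on either strand. There are 183 bases between it and the start in Gc and 53 in F13b.
Gc: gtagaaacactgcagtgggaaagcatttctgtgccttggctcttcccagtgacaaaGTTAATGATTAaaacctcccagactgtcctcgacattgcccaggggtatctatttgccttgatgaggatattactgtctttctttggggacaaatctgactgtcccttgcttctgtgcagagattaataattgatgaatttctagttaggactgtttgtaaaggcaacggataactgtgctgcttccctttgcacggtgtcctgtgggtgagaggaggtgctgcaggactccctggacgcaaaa
F13b: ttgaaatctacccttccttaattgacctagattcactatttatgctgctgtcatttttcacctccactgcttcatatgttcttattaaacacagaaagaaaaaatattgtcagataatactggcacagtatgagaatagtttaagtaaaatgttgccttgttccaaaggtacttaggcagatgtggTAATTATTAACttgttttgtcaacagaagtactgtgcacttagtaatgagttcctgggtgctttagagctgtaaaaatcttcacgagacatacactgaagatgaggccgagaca
The 4 genes were chosen after their values were seen. Fblim1 ranged from 1.83 to 17.5 CPM on day 1 (median 3.58) and from 42.1 to 101 CPM on day 3 (median 75.2) (log2 fold change 4.03, SE 0.30, adjusted p = 5.3e-08) and Acta1 ranged from 50.3 to 175 CPM on day 1 (median 113) and from 457 to 897 CPM on day 3 (median 582) (log2 fold change 2.50, SE 0.22, adjusted p = 2.3e-07), both without overlap. Gc ranged from 1996 to 6740.4 CPM on day 1 (median 4653) and from 799 to 2406 CPM on day 3 (median 1361) (log2 fold change -1.76, SE 0.19, adjusted p = 1.9e-06), with groups that overlapped. F13b ranged from 6.77 to 30.6 CPM on day 1 (median 10.3) and from 0 to 5.44 CPM on day 3 (median 1.57) (log2 fold change -2.92, SE 0.56, adjusted p = 0.00063) and did not pass with the library total as a covariate (adjusted p = 0.14). Promoters were found for 6575 of 8959 tested symbols, and both motifs were searched on both strands. A CArG box was present in 1.64% of all 33469 promoters of the table, in 1.94% of those of genes that rose, in 1.36% of those that fell and in 1.13% of those without a call. The HNF1 form was present in 0.275% of all promoters, in 1 of 1132 of genes that rose (0.0883%), in 10 of 1102 that fell (0.907%) and in 7 of 4341 without a call (0.161%). The 10 that fell were Gc, F13b, Serpina4 and Lect2, which are secreted, and also Dhx38, Gtf3c6, Mia2, Timm9, Rassf6 and Pcbd1. The 1 that rose was Lipc, hepatic lipase. Genes with a CArG box that fell included Hpx and Ldha. A match describes letters in the window and no binding was measured.

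Most of the matrix genes that could be tested rose. Of 23 collagen and matrix enzyme genes tested (43 had a probe) 15 rose and 3 fell, with a median of 1.49, and 13 rose and 0 fell with the library total as a covariate. Loxl1, a lysyl oxidase that cross-links elastin and collagen, ranged from 0.192 to 7.22 CPM on day 1 (median 2.14) and from 41.8 to 177 CPM on day 3 (median 76.8) (log2 fold change 5.21, SE 0.41, adjusted p = 7.2e-08). Thbs1, thrombospondin 1, ranged from 252 to 1378 CPM on day 1 (median 850.0) and from 1995 to 4188 CPM on day 3 (median 2744) (log2 fold change 1.81, SE 0.23, adjusted p = 1.5e-05). The day 3 libraries of both were above every day 1 library. Fibrillar and beaded-filament collagens rose with overlap between the groups. Col1a2 ranged from 0.423 to 10.9 CPM on day 1 (median 5.47) and from 6.54 to 107 CPM on day 3 (median 24.2) (log2 fold change 2.74, SE 0.43, adjusted p = 0.0001), Col3a1 ranged from 3.46 to 29.7 CPM on day 1 (median 9.48) and from 13.3 to 154 CPM on day 3 (median 56.1) (log2 fold change 2.24, SE 0.27, adjusted p = 6.8e-06) and Col6a1 ranged from 2.68 to 16.2 CPM on day 1 (median 8.73) and from 12.3 to 97.2 CPM on day 3 (median 40.7) (log2 fold change 2.37, SE 0.24, adjusted p = 1.1e-06), and each was higher in 8 of 8 pairs. Col1a1 had too few counts to be tested.

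Receptors and regulators of the matrix were counted next. Of 20 integrin, laminin and proteoglycan genes tested 10 rose and 0 fell (median 0.78). At an unadjusted p under 0.05 and in DESeq2, 0 were lower, and without plate 1, 1 fell. Adjusted for the library total, 4 rose. Lamb2, a basement membrane laminin chain, ranged from 2.50 to 22.4 CPM on day 1 (median 6.91) and from 45.5 to 94.5 CPM on day 3 (median 66.9) and rose without overlap (log2 fold change 2.92, SE 0.34, adjusted p = 5.2e-06). Itga5, the fibronectin receptor chain, rose from 19.9 CPM on day 1 to 42.7 CPM on day 3 (log2 fold change 1.01, SE 0.19, adjusted p = 0.00055) and did not pass with the library total as a covariate (0.12). Among 22 matrix proteases and inhibitors 6 rose and 2 fell (4 and 2 with that covariate), where 17.2% of all probes rose and 17.7% fell in the main fit. Timp1, an inhibitor of matrix metalloproteinases, was up without overlap from 57.1 CPM on day 1 to 291 CPM on day 3 (log2 fold change 2.20, SE 0.26, adjusted p = 6e-06). Of 21 targets of TGF-beta, YAP and serum response 9 rose and 2 fell (median 0.31). Tgfb1, the ligand, ranged from 1.97 to 13.7 CPM on day 1 (median 3.91) and from 19.2 to 36.5 CPM on day 3 (median 26.4) (log2 fold change 2.44, SE 0.29, adjusted p = 7.1e-06). Ankrd1, a YAP target, ranged from 2.31 to 23.8 CPM on day 1 (median 15.3) and from 24.6 to 74.8 CPM on day 3 (median 56.6) (log2 fold change 1.93, SE 0.31, adjusted p = 0.00013). Neither overlapped between days. Without plate 3, 5 or 7, 5 members of this list rose, 3 did with the library total as a covariate, and 6 integrin and laminin genes rose without plate 5. Ctgf has no probe of that name.

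Markers of other liver cell types were read beside these groups. Of the 26 stellate and fibroblast markers 24 had a probe, 9 could be tested, 6 rose and 1 fell (median 1.5), and 4 rose with the library total as a covariate. Their summed level ran from 326 to 596.2 CPM on day 1 and from 387.7 to 896.1 CPM on day 3, and 1 marker had no count in the 16 libraries. Pdgfra, Pdgfrb, Des and Dcn were among those with too few counts to be tested. Dpt, dermatopontin, was the marker that fell (log2 fold change -1.78, SE 0.18, adjusted p = 1.6e-06). Of 22 macrophage markers 14 were tested, 5 rose and 2 fell, with sums of 164.3 to 389.3 CPM on day 1 and 171.7 to 874.1 CPM on day 3, and 2 were at 0. Lyz2, lysozyme, ranged from 0 to 37.9 CPM on day 1 (median 5.01) and from 7.36 to 277 CPM on day 3 (median 72.9) (log2 fold change 3.21, SE 0.46, adjusted p = 4.8e-05), and Cd163, the hemoglobin scavenger receptor, rose from 11.1 CPM on day 1 to 27.6 CPM on day 3 (log2 fold change 1.60, SE 0.32, adjusted p = 0.00076). Cd68, a lysosomal protein of macrophages, ranged from 4.14 to 16.9 CPM on day 1 (median 10.2) and from 0 to 4.32 CPM on day 3 (median 0.867) (log2 fold change -3.53, SE 0.51, adjusted p = 5.2e-05), and Clec4f, a lectin of Kupffer cells, fell from 31.3 CPM on day 1 to 16.1 CPM on day 3 (log2 fold change -1.08, SE 0.26, adjusted p = 0.0036). Given the library total as a covariate, 1 macrophage marker rose and 2 fell, while Lyz2, Cd163 and Clec4f did not pass (adjusted p = 0.052, 0.61 and 0.15). Without plate 5, 3 macrophage markers rose. Of 9 endothelial markers tested 2 rose and 1 fell, near the 34.8% of all probes that changed (2 and 0 with the library total as a covariate). Their sums were 53.14 to 296.9 CPM on day 1 and 250.4 to 459.5 CPM on day 3. Esam, a junction protein and a large part of the day 3 sums, ranged from 2.50 to 45.6 CPM on day 1 (median 17.7) and from 81.9 to 206 CPM on day 3 (median 141) (log2 fold change 3.07, SE 0.34, adjusted p = 3.3e-06). Lymphocyte markers and markers of neutrophils and red cells had 1 member tested each and none called. Lymphocyte markers summed to 8.599 to 25.17 CPM on day 1 and 4.641 to 29.08 CPM on day 3 with 9 at 0, and the others to 2.15 to 8.184 CPM and 4.001 to 24.46 CPM with 6 at 0. The part of these cells in the rise of matrix and cytoskeletal genes was not tested.

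Biliary and progenitor markers were tested for 6 members, of which 4 rose and 0 fell (median 0.9), while 1 was lower at an unadjusted p under 0.05 and 1 fell in DESeq2. Adjusted for the library total, 3 rose. Sox9, the transcription factor of bile duct cells and of hepatocytes that take on biliary features, ranged from 11.2 to 111 CPM on day 1 (median 36.2) and from 226 to 1438 CPM on day 3 (median 805). The lowest day 3 library was above the highest day 1 library (log2 fold change 4.19, SE 0.32, adjusted p = 6.5e-08), and the log2 fold changes of monoculture and co-culture were 4.30 and 4.08. Prom1, a membrane protein of progenitor cells, ranged from 0 to 2.05 CPM on day 1 (median 1.09) and from 5.84 to 21.0 CPM on day 3 (median 9.12) (log2 fold change 3.35, SE 0.53, adjusted p = 0.00011). Afp, the fetal plasma protein, ranged from 5.50 to 13.1 CPM on day 1 (median 10.7) and from 3.41 to 11.5 CPM on day 3 (median 5.78) (log2 fold change -0.62, SE 0.28, adjusted p = 0.1). The summed level of the list ran from 175.7 to 337.3 CPM on day 1 and from 459.4 to 1693 CPM on day 3. These sums include Sox9, which alone had 226 to 1438 CPM on day 3, so they do not describe the other members. Krt7, Krt19, Epcam and Spp1 had too few counts to be tested.

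Some proliferation genes rose. Of 30 cell cycle and replication genes tested (51 had a probe) 12 rose and 1 fell (median 0.58). Ccnb2, a mitotic cyclin, ranged from 4.46 to 35.5 CPM on day 1 (median 8.30) and from 17.6 to 91.9 CPM on day 3 (median 37.8) (log2 fold change 1.93, SE 0.32, adjusted p = 0.00018). Nusap1, of the mitotic spindle, ranged from 4.23 to 25.4 CPM on day 1 (median 6.43) and from 7.77 to 65.9 CPM on day 3 (median 27.7) (log2 fold change 1.66, SE 0.27, adjusted p = 0.00015). Mcm2, of the replication helicase, rose from 30.1 CPM on day 1 to 66.6 CPM on day 3 (log2 fold change 0.82, SE 0.15, adjusted p = 0.00034). Each was higher in 8 of 8 pairs with overlapping groups. Cdk4, the kinase partner of cyclin D, fell without overlap (log2 fold change -2.80, SE 0.46, adjusted p = 0.00017), while cyclin D1 itself, Ccnd1, ranged from 25.4 to 108 CPM on day 1 (median 59.0) and from 31.7 to 178 CPM on day 3 (median 70.3) (log2 fold change 0.45, SE 0.30, adjusted p = 0.26). Without plate 7, 7 of the list rose, with the library total as a covariate 5 rose and none fell, and Nusap1 and Cdk4 then had adjusted p-values of 0.061 and 0.095. Of 20 p53 targets 5 rose and 3 fell, where 34.8% of all probes changed. This became 1 and 0 with the library total as a covariate, 2 and 1 without plate 5, and 3 and 1 without plate 3. The apoptosis gene Pmaip1 (Noxa) ranged from 3.47 to 10.5 CPM on day 1 (median 5.74) and from 32.6 to 234 CPM on day 3 (median 106) and rose without overlap (log2 fold change 4.08, SE 0.31, adjusted p = 6.2e-08). Cdkn1a, the p53-induced kinase inhibitor p21, ranged from 10.5 to 28.4 CPM on day 1 (median 17.4) and from 10.7 to 28.5 CPM on day 3 (median 16.3) (log2 fold change -0.07, SE 0.24, adjusted p = 0.85), with a reversed sign without plate 7 (0.13). Of 13 clock genes 2 rose and 3 fell, near the 34.8% of all probes that changed (1 and 0 with the library total as a covariate, and 6 fell without plate 1). Dbp, an output gene of the clock, rose without overlap from 18.6 CPM on day 1 to 74.5 CPM on day 3 (log2 fold change 1.86, SE 0.15, adjusted p = 7.2e-08).

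In housekeeping machineries more genes fell than rose. Of 50 respiratory chain and mitochondrial genes 24 fell and 0 rose (2 were higher at an unadjusted p under 0.05 in edgeR, 0 in DESeq2), of 34 ribosomal protein genes 16 fell and 3 rose, of 32 ribosome biogenesis genes 9 fell and 2 rose, and of 21 proteasome genes 10 fell and 1 rose. Over all probes 17.7% fell and 17.2% rose. The medians of the 4 lists were -0.40, -0.34, -0.41 and -0.40 against -0.0792 over all probes. Ndufb9, a subunit of complex I, ranged from 134 to 247 CPM on day 1 (median 172) and from 20.0 to 103 CPM on day 3 (median 54.1) (log2 fold change -1.60, SE 0.19, adjusted p = 5.8e-06). Cox7b, of complex IV, fell from 42.8 CPM on day 1 to 10.2 CPM on day 3 (log2 fold change -2.23, SE 0.35, adjusted p = 0.00011). Rps14 of the small ribosomal subunit fell from 1421 CPM on day 1 to 468 CPM on day 3 (log2 fold change -1.46, SE 0.17, adjusted p = 6e-06) and Rpl7 of the large subunit from 389 CPM on day 1 to 149.9 CPM on day 3 (log2 fold change -1.04, SE 0.13, adjusted p = 9e-06). Ncl, nucleolin, ranged from 201 to 419.9 CPM on day 1 (median 263) and from 77.2 to 176 CPM on day 3 (median 125) and fell without overlap (log2 fold change -1.22, SE 0.13, adjusted p = 2.9e-06), and Psmd13, of the proteasome lid, had -1.06 (adjusted p = 0.00046). After adjustment for library totals, 2, 4, 1 and 0 members of the 4 lists fell, and Cox7b and Psmd13 did not pass (adjusted p = 0.087 and 0.18). In that fit 257 of 9280 probes fell. The counts for the respiratory chain, ribosome biogenesis and the proteasome are near or below that share. Ribosome biogenesis genes that fell numbered 3 without plate 7 and 5 without plate 5, and without plate 1 or plate 5 no ribosomal protein rose.

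Of 26 immediate early genes 2 rose and 6 fell (median -0.02), where 34.8% of all probes changed, and with the library total as a covariate none passed. Without plate 5, 3 fell. Fos, a subunit of the AP-1 transcription factor, ranged from 0.572 to 3.71 CPM on day 1 (median 1.45) and from 0 to 6.29 CPM on day 3 (median 3.91) (log2 fold change 1.04, SE 0.56, adjusted p = 0.16). Myc, the growth-promoting transcription factor, ranged from 40.4 to 79.2 CPM on day 1 (median 54.0) and from 31.1 to 55.2 CPM on day 3 (median 37.0) (log2 fold change -0.48, SE 0.17, adjusted p = 0.041), with 1 of 8 pairs higher, and the call was lost without plate 1, 5 or 7 (adjusted p = 0.082, 0.062 and 0.18) and without the day 3 monoculture of plate 1 (0.057). Jun had too few counts to be tested. Of 10 genes of the insulin-like growth factor axis 4 rose and 1 fell, and 2 and 0 did with the library total as a covariate. Igfbp3, the main carrier of these factors in blood, ranged from 0.331 to 10.5 CPM on day 1 (median 2.37) and from 1.28 to 99.3 CPM on day 3 (median 9.88) (log2 fold change 2.26, SE 0.44, adjusted p = 0.00068) and did not pass with the library total as a covariate (0.19).

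Among the probes with the largest changes were several that no list held. The 10 highest, which had a call, 8 of 8 pairs one way and a mean of at least 10 CPM on 1 day, were Nov, RGD1311575, Loxl1, Crmp1, Cnn1, Cd69, Pkp1, Dpysl3, Adgra1 and PCOLCE2. Nov, a matricellular protein of the CCN family, ranged from 0 to 0.639 CPM on day 1 (median 0.174) and from 4.09 to 38.4 CPM on day 3 (median 13.3) (log2 fold change 5.68, SE 0.58, adjusted p = 1.3e-06). Crmp1 and Dpysl3, of the collapsin response mediator family that acts on the cytoskeleton of growing axons, rose together. Crmp1 ranged from 0 to 2.10 CPM on day 1 (median 0.342) and from 6.17 to 24.0 CPM on day 3 (median 14.5) (log2 fold change 5.20, SE 0.57, adjusted p = 2.8e-06) and Dpysl3 ranged from 2.65 to 27.6 CPM on day 1 (median 6.06) and from 96.8 to 269 CPM on day 3 (median 142) (log2 fold change 4.56, SE 0.39, adjusted p = 1.7e-07). Cd69, an early activation antigen of lymphocytes, ranged from 0 to 2.29 CPM on day 1 (median 0.575) and from 4.59 to 44.5 CPM on day 3 (median 18.1) (log2 fold change 4.78, SE 0.69, adjusted p = 4.4e-05). On the log2 scale Pkp1, a desmosomal plaque protein, changed by 4.64, the adhesion receptor Adgra1 by 4.52, PCOLCE2, an enhancer of procollagen processing, by 4.30, and RGD1311575, an older symbol of Cracd, by 5.33. In all 10 the day 3 libraries lay above every day 1 library, and for 8 of them the lowest day 1 library had no count, so that the size of the fold change depends on the prior count of the fit. The 10 lowest included AABR07027015.1, LOC259245, Cyp2e1, Cyp3a2, Cyp3a1, Cyp1a2, Serpina6, Cyp2c11 and Emc7. LOC259245, for which the reference gives no name, ranged from 581 to 6799.9 CPM on day 1 (median 1636) and from 6.98 to 116 CPM on day 3 (median 26.3) (log2 fold change -5.97, SE 0.47, adjusted p = 7.9e-08). AABR07027015.1, a locus without a gene name, had -6.05 and Emc7, of the endoplasmic reticulum membrane complex, -4.65.

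The step had the same direction in monoculture and in co-culture for each of the 3230 probes. These probes were called by the fit of both cultures together, which favours probes that move alike in both. That count is thus largely set by how the probes were chosen. Within 1 model for all 4 groups, the monoculture step gave 1198 calls, 709 of them higher, and the co-culture step gave 2004, of which 985 were higher. The change in co-culture minus the change in monoculture passed for 0 of 9280 probes (0%), with 209 at an unadjusted p under 0.05, while DESeq2 called 2, Cstb1 and Cyp2d2. The log2 fold change of Cyp2e1 was -5.10 without and -6.35 with non-parenchymal cells, and that of Apoa2 -3.70 and -5.23. Col1a2 changed on the same scale by 2.00 and 3.47, and Prom1 by 2.48 and 4.36. Closer pairs were given by Tmsb10 with 2.05 and 2.04 and Nr1i2 with 0.95 and 1.22. A difference between cultures that misses the threshold does not show that the cultures changed alike.

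**Figure D4:**
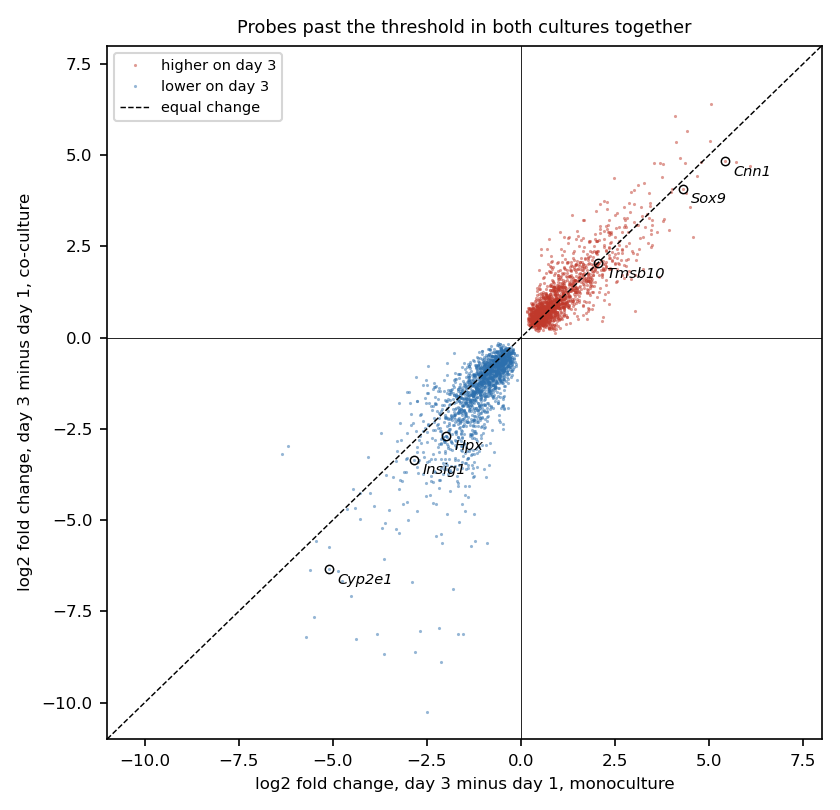
Log2 fold change from day 1 to day 3 in monoculture (x axis) and in co-culture (y axis) of the 3230 probes that passed in both cultures together, 1 dot per probe, with 6 genes ringed. The dots lie where both values are positive or both negative, as for Sox9 with 4.30 and 4.08 and Cyp2e1 with -5.10 and -6.35. Choosing probes by the joint fit favours such agreement.

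The same step was measured in 62 further libraries, 32 of day 1 and 30 of day 3, from wells with the lowest dose of each compound with the same plate numbers. These doses were 1 µM ketoconazole, 0.01 µM GW7647 (a PPAR-alpha agonist), 10 µM gemfibrozil and 0.1 mM phenobarbital, with wells assigned by the library names. For phenobarbital the labels conflict: another field names ketoconazole for some of its wells, and gives its doses in µM where the design text has mM. Without the phenobarbital wells 3911 probes passed. None of these libraries is a vehicle library, but they lie on the same plates as the vehicle wells. Several come from each plate and day, and the fit counted each as separate. They are therefore not an independent repeat of the step. Of 10130 probes tested 4732 passed (46.7%), 2251 higher and 2481 lower. Of the 3230 probes called in vehicle wells 2670 were called in the same direction, which is 82.7% of the vehicle calls and 56.4% of the lowest-dose calls, and 2 were called in the opposite direction. Cyp3a2 had a log2 fold change of -6.48 there against -5.50 in vehicle wells, Insig1 -2.77 against -3.08 and Hmox1 -2.62 against -3.67. Sox9 had 4.16 against 4.19, Cnn1 5.03 against 5.12 and Loxl1 4.08 against 5.21. Cpt1a, a PPAR-alpha target, had 0.68 against 1.49. Alb, Hnf4a, Cdkn1a and Afp had no call in either set, whereas Ccnd1, Tat and Fos passed in the lowest-dose wells.

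**Figure D5:**
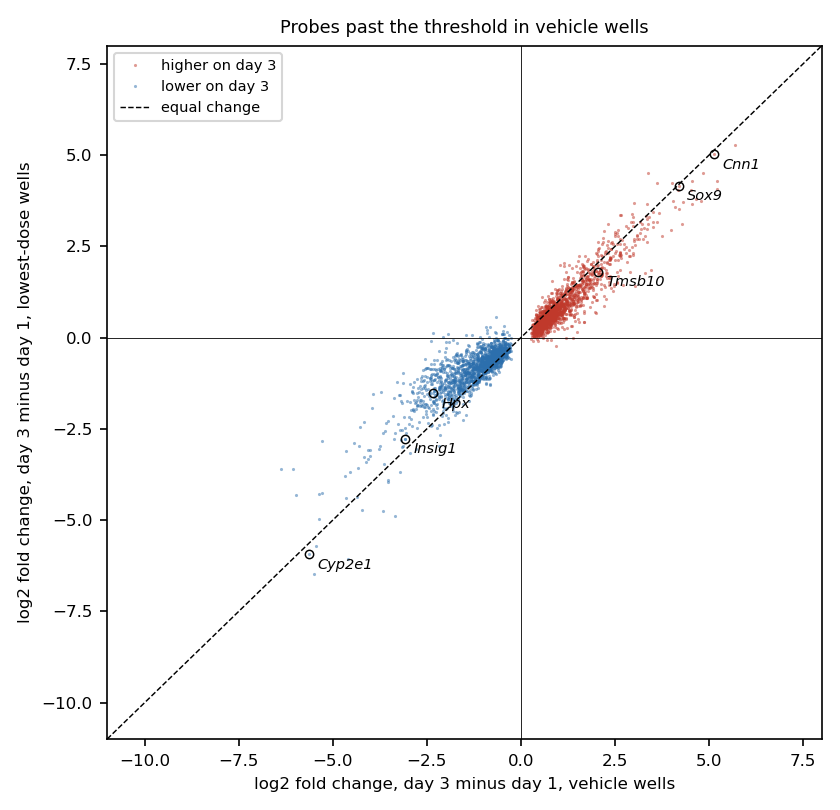
Log2 fold change from day 1 to day 3 in vehicle wells (x axis) and in the lowest-dose wells (y axis) of the probes that passed in vehicle wells and were tested in both, 1 dot per probe, with 6 genes ringed. Most dots share the sign of both axes, and Hpx fell less in the lowest-dose wells than in vehicle wells (-1.53 against -2.33).

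Day 7 vehicle wells, 8 libraries that the test did not use, show what followed. Some genes that had fallen stayed low or went lower. Over both cultures Cyp3a2 averaged 0.471 ± 0.421 CPM (SD, n = 8) on day 7, Apoa2 0.371 ± 0.347 CPM, Serpina6 0.208 ± 0.263 CPM and Insig1 23.3 ± 13.2 CPM, all under their day 1 levels. Others were higher again as means. Il6st averaged 73.4 ± 30.0 CPM, against 12.97 CPM on day 3 and 74.0 CPM on day 1, and Crp 56.9 ± 30.9 CPM, against 14.6 and 142 CPM. In the day 7 monoculture of plate 5, however, Crp had 5.705 CPM, under its lowest day 3 library (6.88 CPM). Cyp2c6v1 differed between plates, with 71.4 to 140 CPM on plates 1 and 3 and 14.1 to 18.6 CPM on plates 5 and 7, against a mean of 9.74 CPM on day 3. This split was not particular to Cyp2c6v1. Alb had 2361 to 4190 CPM on plates 1 and 3 and 388.7 to 1161 CPM on plates 5 and 7. Collagen genes and Vim were higher still as means. Col3a1 averaged 3477 ± 3621 CPM against 61.1 CPM on day 3, Col1a2 1181 ± 888 against 32.0 and Vim 683 ± 514 against 177. Several genes that had risen by day 3 were lower again on day 7 as means, with S100a11 at 9620.2 ± 7005 CPM against 31368, Tmsb10 at 1797 ± 1079 against 4415, Acta1 at 81.5 ± 87.9 against 644 and Esam at 18.6 ± 12.3 against 142. These day 7 means carry no test.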

How the data were processed

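Counts per probe, not normalized, were deposited by the authors as 1 table of 22253 probes and 311 libraries, made by the assay's supplier per the labels' protocols. Bowtie is named in the submitters' processing notes, with version and build not given in the sources used here. Trailing decimals on 1271 probe names were left as they are, and levels of genes with such names are not described. Libraries were grouped by culture, treatment and day from the labels, and the plate number in the library name is the replicate number.

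For the 16 vehicle libraries of days 1 and 3, edgeR 4.0.16 was run in R 4.3.3 (filterByExpr on day with a minimum count of 10, TMM, estimateDisp, glmQLFit and a two-sided glmQLFTest on plate, culture and day, Benjamini-Hochberg adjustment over 9280 probes, threshold 0.05). DESeq2 1.42.0 was an alternative. SE is the log2 fold change divided by the root of F. CPM used TMM factors of the 24 vehicle libraries together. Same-plate libraries of different groups deviated together (mean residual correlation 0.25 over 24 pairs, lowest 0.0731). Residuals were taken from group means, so the mean for other plates (-0.0818, highest 0.241) follows from the same-plate mean and is no second observation. The digit before the well in the library names marks the plate, so it was kept as a block. No 2 libraries had identical counts.

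Genes named are those with a call, 8 of 8 pairs one way and at least 10 CPM on 1 day. From these the 10 highest and 10 lowest changes and up to 5 genes of each of 44 lists were taken, of which the text names 2 to 4, plus 25 genes of known relevance whatever their values. Others are named as chosen after their values were seen. Some genes are not reported here. Members and lists were chosen with earlier results of these data known. Of 1282 list genes 1153 had a probe and 852 were tested, and a probe that matched 2 members was counted once.

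The procedure was tested on simulated counts for 8917 probes, where it recovered 69.5% of changes of 1 and 95.7% of changes of 2 on the log2 scale with 7 false calls. Only 95 and 94 tested probes carried these changes, drawn up as often as down. Wells of 1 plate and day were drawn independently. In the data 34.8% of probes changed and libraries of 1 plate deviated together, so the 7 false calls give no error rate for the data. Depth limits probes with few counts.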

Additional observations from a re-analysis of the deposited data

Results flagged for a closer look

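Each day's 8 libraries were checked for 1 library far from the others, for the genes named and for depth, 290 sets in all. Such a gap was found in 12 sets, and chance gives about 1 in 20, so their number is no finding. On day 1 the co-culture of plate 3 had the highest Cyp3a2 level with 661.2 CPM (next 304.2 CPM), and the co-culture of plate 1 the highest Fblim1 level with 17.54 CPM (next 5.3 CPM). The lowest day 1 values stood apart for Nr1i2 in the monoculture of plate 7 (22.69 CPM, next 37.64), Csad in the co-culture of plate 7 (2.856 CPM, next 8.311), Cpt1a in the monoculture of plate 3 (2.813 CPM, next 7.894), Gc in the same library (1996 CPM, next 4338) and PCOLCE2 in the monoculture of plate 5 (0 CPM, next 0.6393). On day 3 the lowest values stood apart for Gsta2 in the co-culture of plate 3 (0.5239 CPM, next 3.735), Afm in the co-culture of plate 7 (0.7118 CPM, next 3.49), and Isg15 (3.756 CPM, next 10.63) and Ndufb9 (20.03 CPM, next 48.86) in the monoculture of plate 1, the library with the fewest probes detected. AABR07027015.1 was highest in the day 3 monoculture of plate 7 (1.76 CPM, next 0.2878). The calls of these 12 genes kept their direction and their side of the threshold with each plate left out.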

How the results depend on the processing

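The direction of the 3230 calls held in each alternative fit that had a value, except for 22 probes with the library total as a covariate, 1 with the share of probes detected and 15 with probes of 1 symbol summed. Counts moved more. Monoculture alone gave 486 calls (301 higher, 185 lower), co-culture alone 1538 (746 and 792), the library total as a covariate 734 (477 and 257), and the share of probes detected as a covariate 1839 (1067 and 772). With a plate, or the day 3 monoculture of plate 1 (chosen after seeing the data), left out 2172 to 3333 probes passed, 1105 to 1608 higher and 1053 to 1725 lower, the lowest total and the lowest number lower without plate 5. Without the replicate block on plate the calls numbered 2501, and in the lowest-dose wells 4351 against 4732. DESeq2 called 3880, no filter on low counts 3405 and a minimum count of 50 2665. DESeq2 called 2 probes for the difference between cultures against 0. With plates left out the log2 fold change ran from -0.13 to 0.52 for Hnf4a, from -0.25 to 0.13 for Cdkn1a, from -0.44 to 0.32 for Otc and from -0.23 to 0.45 for Fga. Signs were reversed for Hnf4a without plate 1 (-0.13) and in co-culture alone (-0.20), Ccnd1 in co-culture alone (-0.070), Cdkn1a without plate 7 (0.13), Fga without plates 1 and 7 (-0.16 and -0.23) and with the share of probes detected as a covariate (-0.21), and Otc without the plate block (0.055), without plate 5 (0.32) and in co-culture alone (0.28). Among genes named, the share of probes detected as a covariate also ended the calls of Ass1 (adjusted p = 0.19), Cd163 (0.051), Cebpa (0.059), Fgb (0.057), Clec4f (0.086) and Myc (0.43). The cause of these differences was not tested. Day and depth cannot be told apart fully, since day 3 libraries were shallower.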

Other observations

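The 4 genes that follow belong to no list and were chosen after their values were seen, so they stand for no group. Nefl, the light neurofilament, ranged from 0.84 to 11.4 CPM on day 1 (median 3.57) and from 32.0 to 105 CPM on day 3 (median 58.7) (log2 fold change 4.02, SE 0.32, adjusted p = 7.5e-08, edgeR). Npw, a neuropeptide precursor, rose from a median of 6.84 CPM on day 1 to 69.1 CPM on day 3 (log2 fold change 3.35, SE 0.20, adjusted p = 4.3e-09, edgeR), Cplx2, a complexin of synaptic vesicle release, from 23.4 CPM on day 1 to 148 CPM on day 3 (log2 fold change 2.65, SE 0.17, adjusted p = 1.2e-08, edgeR) and Bex3, a small protein of the brain-expressed X-linked family, from 37.4 CPM on day 1 to 152 CPM on day 3 (log2 fold change 2.14, SE 0.14, adjusted p = 1.2e-08, edgeR).

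Cyba, the membrane subunit of NADPH oxidases, was also chosen after its values were seen. It ranged from 5.50 to 23.6 CPM on day 1 (median 12.5) and from 62.9 to 238 CPM on day 3 (median 126) (log2 fold change 3.34, SE 0.14, adjusted p = 4.8e-11, edgeR), without overlap, and in lowest-dose wells its log2 fold change was 2.98.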
